A study of Homo sapiens with 9 samples.

Results

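The 7 genes described here are MDM2, MDM4, RCHY1, PPM1D, CCNG1, AEN and ZMAT3, which encode regulators of p53 and products of p53 target genes. They were taken by name: the symbol in the FPKM tables gave the gene identifier, and the identifier gave the row in the count table. All 7 were found among 51796 genes, and all 7 were among the 18292 genes with enough counts to be tested. RNA came from A549, an epithelial cell line from a human lung adenocarcinoma. The groups were GSK591, an inhibitor of PRMT5, at 1 µM; MS023, an inhibitor of the type I protein arginine methyltransferases, at 1 µM; and DMSO, the solvent. All 3 groups were harvested after 7 days and had 3 libraries each, made from total RNA freed of ribosomal RNA. All cells are of 1 line. Inhibitor plates were seeded with 0.4 and DMSO plates with 0.2 times 1e5 cells, so seeding density and inhibitor cannot be told apart in the comparisons with DMSO. The labels give triplicate extractions per condition and do not say that these came from separate cultures, so the error behind each p-value is that between libraries and may be technical.

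p53 is a transcription factor that is kept low by its own targets. MDM2 binds p53 and marks it with ubiquitin for degradation, while p53 switches on MDM2 from an internal promoter, which closes a negative feedback loop. MDM4 is a relative of MDM2 that pairs with it and blocks p53 at its activation domain, and further p53 targets feed back on the loop through ubiquitin, phosphate groups or RNA. A549 cells are known to keep a functional p53 and to have lost CDKN2A, whose ARF product restrains MDM2. PRMT5 places symmetric and the type I enzymes asymmetric dimethylarginine on proteins, many of them splicing factors. In other cells, loss of PRMT5 is known to change splicing of MDM4 so that less full-length MDM4 is made.

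The promoters of all 7 genes were read from RefSeq windows on GRCh38.p14 that run from 250 bases before to 50 bases after an annotated start. There were 15 windows, because MDM2 and RCHY1 had 4 each and CCNG1 and ZMAT3 had 2 each. Windows were searched on both strands for the p53 consensus, which is a pair of adjoining half-sites, with up to 3 mismatches and none in its fixed C and G. The windows below are shown because they hold the matches, in MDM2 and AEN, or because their genes, ZMAT3 and MDM4, moved in opposite directions with GSK591 and their windows hold none. Capitals mark the match to the full consensus.
MDM2, downstream start, chr12:68808767-68809066, + strand: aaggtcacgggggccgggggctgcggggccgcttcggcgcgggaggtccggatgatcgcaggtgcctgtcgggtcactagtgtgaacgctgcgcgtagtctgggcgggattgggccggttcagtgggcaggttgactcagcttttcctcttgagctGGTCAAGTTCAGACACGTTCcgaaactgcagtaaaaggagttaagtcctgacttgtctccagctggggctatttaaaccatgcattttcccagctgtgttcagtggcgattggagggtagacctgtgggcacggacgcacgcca
AEN, chr15:88621090-88621389, + strand: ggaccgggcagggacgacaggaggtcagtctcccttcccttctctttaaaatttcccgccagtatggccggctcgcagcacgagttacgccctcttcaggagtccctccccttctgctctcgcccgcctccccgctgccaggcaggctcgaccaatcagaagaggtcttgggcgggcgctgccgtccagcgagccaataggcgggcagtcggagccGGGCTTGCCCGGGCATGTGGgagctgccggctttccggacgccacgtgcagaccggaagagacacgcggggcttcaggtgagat
ZMAT3, upstream start, chr3:179071760-179072059, - strand: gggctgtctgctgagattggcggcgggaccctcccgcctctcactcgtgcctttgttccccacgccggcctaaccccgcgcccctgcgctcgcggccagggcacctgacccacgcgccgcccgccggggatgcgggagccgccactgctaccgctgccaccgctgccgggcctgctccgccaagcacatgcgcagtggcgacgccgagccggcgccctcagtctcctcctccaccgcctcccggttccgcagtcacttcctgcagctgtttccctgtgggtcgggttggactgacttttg
MDM4, chr1:204516156-204516455, + strand: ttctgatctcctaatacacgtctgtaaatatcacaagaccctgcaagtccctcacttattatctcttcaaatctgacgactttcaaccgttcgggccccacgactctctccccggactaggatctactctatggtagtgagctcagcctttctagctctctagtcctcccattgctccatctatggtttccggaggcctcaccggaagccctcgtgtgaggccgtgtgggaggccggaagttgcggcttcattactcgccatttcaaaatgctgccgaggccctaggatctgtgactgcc
The match in MDM2 begins 94 bases before the downstream start and has 2 mismatches. It lies also in the window of a further start a few bases on, while the windows of the upstream starts of MDM2 hold no match. The match in AEN begins 34 bases before the start, has 2 mismatches and contains a half-site without mismatch. Over all 35116 RefSeq promoter windows, 1.12% held a full match and 6.63% a half-site without mismatch. The windows of MDM4, PPM1D, CCNG1, RCHY1 and ZMAT3 held neither, which says only that these letters are not in these windows. TATAA was in none of the 15 windows, against 20.4% of all windows. CCAAT, on either strand, was in a window of each member except MDM4, as for 39.7% of 27305 genes. Counted by gene, 1.37% of all genes held a full p53 match and 8.06% a half-site.

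Counts ranged from 31398075 to 51244525 per library. Levels between libraries are given as CPM, counts scaled to library size with TMM factors, and changes as log2 of the fold fitted by edgeR's quasi-likelihood model with its standard error (SE). P-values from it are adjusted by Benjamini-Hochberg over all 18292 genes, and genes under 0.05 are called. A pair of libraries stood apart within its groups. Counts of GSK591 library 3 differed from the other GSK591 libraries by a chi-square per gene of 55.9 and 92.3, against 14.4 between those 2, and mitochondrial ribosomal RNA took 932.5 CPM in it, against 0.4098 to 20.7 CPM in the other 8 libraries. DMSO library 1 differed from the other DMSO libraries by 33.3 and 36.4 per gene, against 7.19 between those 2. With both left out, the calls on the 7 genes and their directions were as with all 9 libraries, except that RCHY1 between the inhibitors, which was not called, lay at 0.00028 in place of -0.00075. Epithelial markers summed to 7690 to 7950 CPM in GSK591, 5130 to 5330 CPM in MS023 and 6400 to 6530 CPM in DMSO libraries, over 6 of 6 genes. Leukocyte markers summed to at most 9.29 CPM, nearly all of it CD14, with PTPRC at 6 and CD3E at 1 count in all libraries together. Fibroblast and endothelial markers, 6 of 7 found, summed to 3.84 to 3.97 CPM in GSK591, 2.2 to 2.76 CPM in MS023 and 2.1 to 2.31 CPM in DMSO libraries. The epithelial sum, with KRT8 its largest part, was thus highest in GSK591 and lowest in MS023, but its genes did not all follow it. EPCAM averaged 6.426 CPM in GSK591, 21.04 CPM in MS023 and 13.53 CPM in DMSO libraries, the opposite order, and KRT7 was not called with GSK591 or KRT19 with MS023. The part of these markers in the results was not tested. In RNA from bulk cells, more RNA per cell and more cells that express a gene cannot be told apart.

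With GSK591, 5 of the 7 genes rose and MDM4 fell, while RCHY1 did not pass the test. Over all genes tested, 62.6% were called, 30.1% higher and 32.4% lower, which is 5510 and 5933 genes. The balance depended on the scale, with 2781 genes higher and 5225 lower in log2(FPKM + 1) with a filter. The median log2 change of the 7 genes was 0.59, against 0.00585 over all genes. With MS023, AEN rose, MDM2, CCNG1 and ZMAT3 fell, and MDM4, PPM1D and RCHY1 did not pass the test. Here 51.0% of all genes were called, 25.1% higher and 25.9% lower, and the median was 0.058 for the 7 genes and -0.00298 over all genes. Between the inhibitors, MDM4 was higher in MS023, and MDM2, PPM1D, CCNG1, AEN and ZMAT3 were lower in MS023 than in GSK591. In that comparison 65.4% of all genes were called, 33.6% higher and 31.7% lower (6151 and 5804 genes, against 5280 and 3050 in log2(FPKM + 1) with a filter), and the median was -0.57 for the 7 genes and 0.00171 over all genes. In a test among all 3 groups, 6 of the 7 genes were called, with RCHY1 at an adjusted p of 0.0983, against 78.1% of all genes. Changes in both comparisons with DMSO use the same DMSO libraries.

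Calls at this threshold took in most genes, so size and overlap were read as well. A called rise of 2-fold or more with GSK591 was seen for MDM2 and ZMAT3, as for 9.11% of all genes, and no member fell by as much, as 2.68% of all genes did. None of the 7 genes changed 2-fold with MS023, where 4.26% of all genes rose and 3.94% fell by as much. MDM2, CCNG1 and ZMAT3 were lower in MS023 than in GSK591 by 2-fold or more, as 10.7% of all genes were, and no member was higher by as much, as 4.99% of all genes were. The 3 GSK591 libraries lay all above the 3 DMSO libraries for 6 members and all below for MDM4, against 32.0% and 33.6% of all genes. The MS023 libraries lay all above DMSO for MDM4 and AEN and all below for MDM2, CCNG1 and ZMAT3, against 28.4% and 29.1% of all genes. They lay all above the GSK591 libraries for MDM4 and all below for the 5 members called lower, against 36.1% and 34.5% of all genes.

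**Figure D1:**
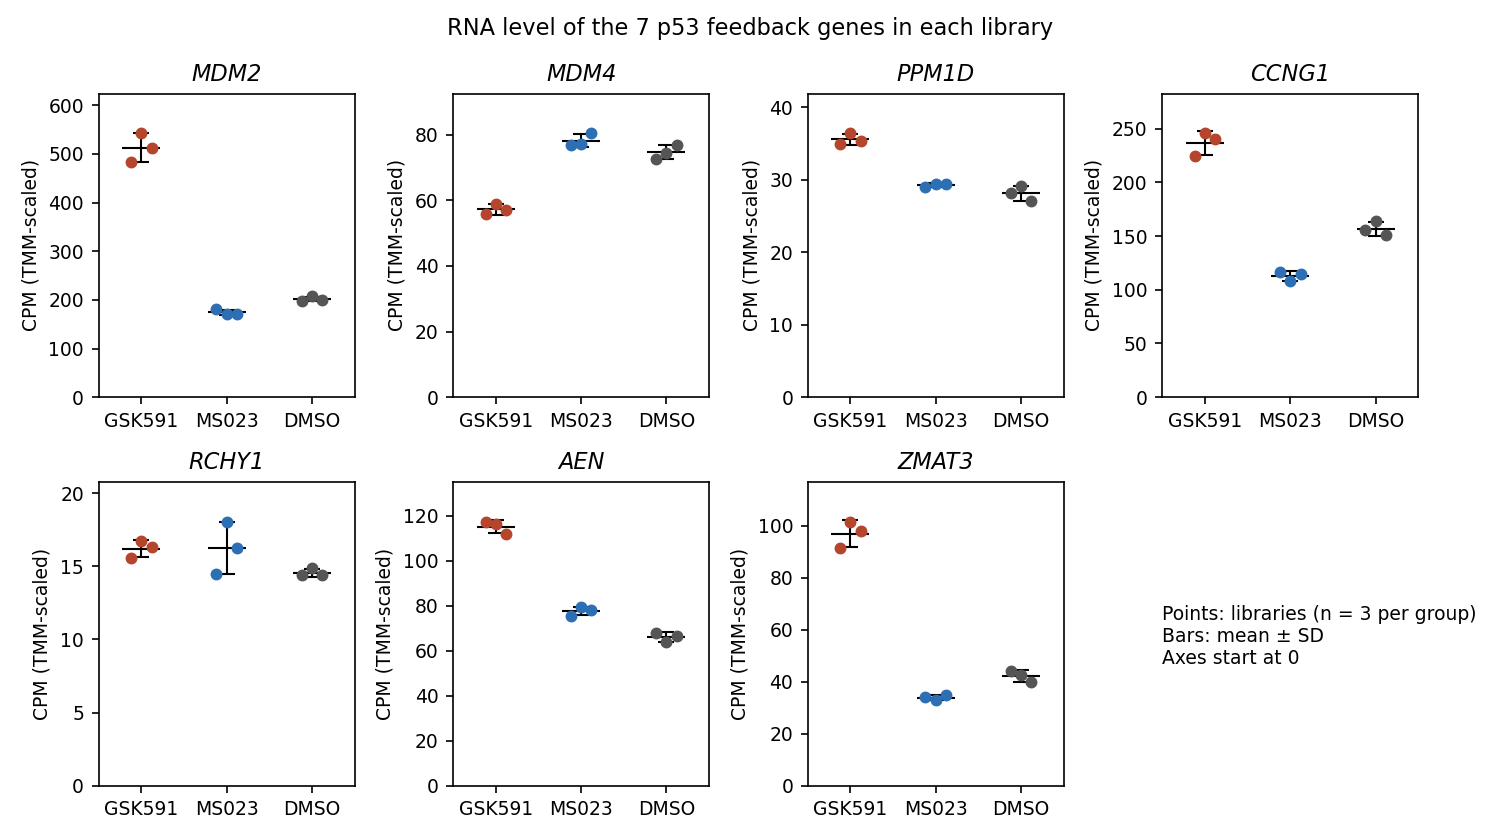
CPM of each of the 7 genes in GSK591, MS023 and DMSO libraries, with each point a library and bars for the mean ± SD (n = 3). MDM2 and ZMAT3 in GSK591 libraries lie more than 2-fold above both other groups, MDM4 is lowest in GSK591, and the groups of RCHY1 lie close together.

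MDM2, the ubiquitin ligase at the centre of the loop (ENSG00000135679, hg19 chr12:69201956-69239214, + strand), had 483.7, 542.9 and 511.7 CPM in GSK591 libraries, 180.6, 171.5 and 171.8 CPM in MS023 libraries, and 198.4, 207 and 200.5 CPM in DMSO libraries. None of the 3 groups overlapped another. The GSK591 libraries were 2.54-fold above DMSO, a log2 change of 1.34 ± 0.0455 (SE, adjusted p = 8.53e-12), which is above that of 94.8% of all genes. With MS023, MDM2 fell by 0.21 ± 0.0448 on the log2 scale (adjusted p = 0.00123), a smaller shift in the opposite direction. Between the inhibitors the log2 difference was -1.55 ± 0.0457 (adjusted p = 7.3e-13). MDM2 has the most transcripts of the 7 genes in the GENCODE annotation, 34, and counts per gene do not tell which of its starts were used.

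MDM4, the partner of MDM2 (ENSG00000198625, hg19 chr1:204485511-204542871, + strand), had 55.76, 58.91 and 56.93 CPM in GSK591 libraries, 76.92, 77.13 and 80.45 CPM in MS023 libraries, and 72.53, 74.41 and 76.8 CPM in DMSO libraries. It was the only one of the 7 genes to fall with GSK591, and every GSK591 library lay below every other library. The log2 change was -0.38 ± 0.0377 (adjusted p = 5.27e-07), a fold of 0.767. With MS023 the log2 change was 0.067 ± 0.0374 and did not pass the test (adjusted p = 0.15, 95% interval -0.0128 to 0.147), and the difference between the inhibitors was 0.45 ± 0.0376 (adjusted p = 6.87e-08). The fall with GSK591 was not called in the deposited FPKM, where MDM4 had 11.16, 12.74 and 9.892 in GSK591, 12.68, 15.1 and 13.96 in MS023, and 12.84, 12.4 and 13.19 in DMSO libraries, and the groups overlapped. There the log2 change with GSK591 was -0.18 ± 0.0867 (limma on log2(FPKM + 1), adjusted p = 0.105).

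FPKM is scaled to length, so CPM over FPKM gives an apparent length in kb. It also takes in any difference in how the count and FPKM tables assign reads, and is given as a description. For MDM4 it was 4.994, 4.624 and 5.756 kb in GSK591 libraries, 6.066, 5.108 and 5.763 kb in MS023 libraries, and 5.651, 6 and 5.821 kb in DMSO libraries. The groups overlapped, and 5.14% of 13661 genes had a lower log2 difference than MDM4's -0.19 between GSK591 and DMSO. RCHY1 had shorter apparent lengths in both inhibitor groups without overlap, 1.89 ± 0.12 kb in GSK591 and 1.96 ± 0.0716 kb in MS023 against 2.22 ± 0.17 kb in DMSO (SD, n = 3 each). Lower log2 differences from DMSO were seen in 3.76% of genes with GSK591 and 7.01% with MS023. ZMAT3 was also shorter in MS023 than in DMSO without overlap (9.83 against 10.4 kb), with 15.8% of genes lower. MDM2 was longer in MS023 than in GSK591 without overlap (3.51 against 3.29 kb), with 89.4% of genes lower. Over all 13661 genes, the median log2 difference in apparent length was 0.0352 with GSK591, -0.00706 with MS023 and -0.0426 between the inhibitors. How many of all genes had apparent lengths without overlap was not counted, so the lack of overlap is read no further. Whether splicing of any of these genes differed was not tested, since the files hold values per gene.

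The MDM2 to MDM4 ratio of counts within a library does not depend on how libraries are scaled. It was 8.676, 9.215 and 8.988 in GSK591 libraries, 2.347, 2.223 and 2.135 in MS023 libraries, and 2.735, 2.782 and 2.61 in DMSO libraries. The 3 groups were apart, with GSK591 far above and MS023 just below DMSO. The ratio was 3.31-fold higher in GSK591 than in DMSO, a mean log2 difference of 1.73, and the log2 difference of MS023 from DMSO was -0.28. MS023 differed from GSK591 by -2.004 on the log2 scale. Each of the 3 two-sided exact permutation tests gave p = 0.1, the smallest p that 3 against 3 libraries allow, and 0.1 after adjustment over the 3 pairs. In FPKM the ratio was 13.03, 13.46 and 15.27 in GSK591, 4.15, 3.239 and 3.42 in MS023, and 4.361, 5.026 and 4.569 in DMSO libraries. The order of the groups was the same on both scales.

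**Figure D2:**
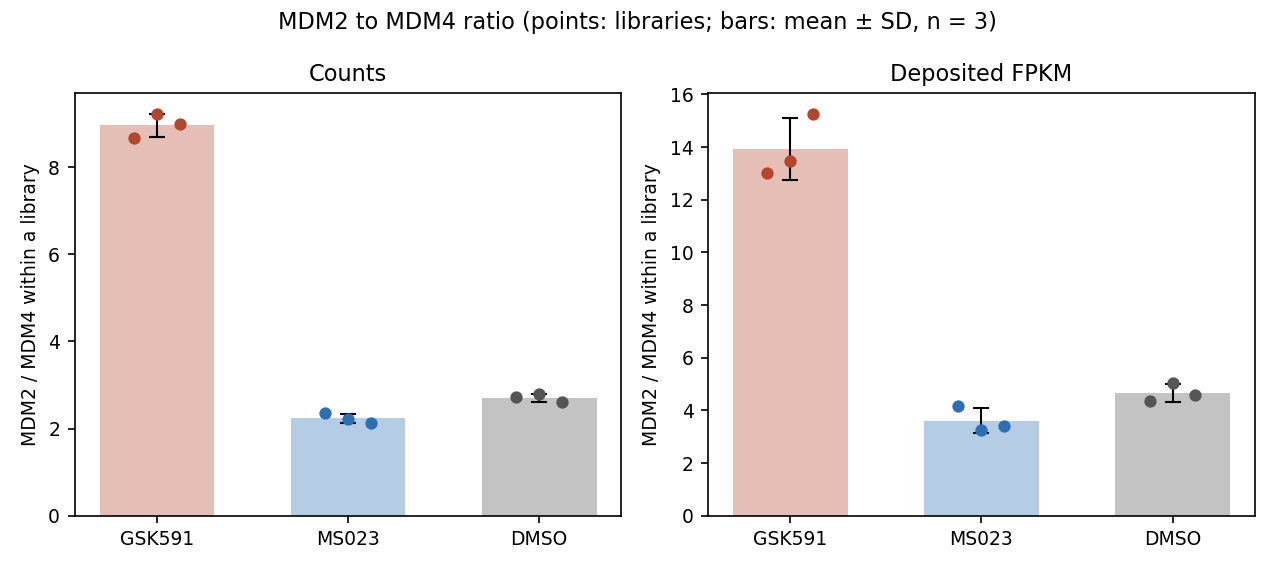
Ratio of MDM2 to MDM4 within each library, from counts on the left and from deposited FPKM on the right. Bars are group means ± SD (n = 3) and points are libraries. All GSK591 libraries lie above 8 in counts and above 13 in FPKM, and no MS023 or DMSO library exceeds 2.782 in counts.

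RCHY1 (ENSG00000163743, hg19 chr4:76404247-76439974, - strand), a further ubiquitin ligase for p53, had the lowest counts of the 7 genes. It had 15.56, 16.7 and 16.35 CPM in GSK591 libraries, 14.46, 18.06 and 16.26 CPM in MS023 libraries, and 14.44, 14.89 and 14.39 CPM in DMSO libraries. GSK591 lay just above DMSO, while MS023 overlapped both. The log2 change was 0.15 ± 0.072 with GSK591 (adjusted p = 0.0767) and 0.15 ± 0.0716 with MS023 (adjusted p = 0.0889), and neither was called. The inhibitors differed by -0.00075 (adjusted p = 0.994), with a 95% interval of -0.153 to 0.152 that leaves room for differences of that size in both directions. In FPKM both inhibitor groups lay above DMSO, with log2 changes of 0.34 in GSK591 (limma, adjusted p = 0.00278) and 0.29 in MS023 (adjusted p = 0.0105).

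PPM1D, the phosphatase WIP1 that removes phosphate from p53 and from damage kinases (ENSG00000170836, hg19 chr17:58677544-58741849, + strand), had 34.91, 36.43 and 35.37 CPM in GSK591 libraries, 28.94, 29.43 and 29.45 CPM in MS023 libraries, and 28.23, 29.07 and 27.08 CPM in DMSO libraries. GSK591 stood above the other groups, and MS023 and DMSO overlapped. The rise with GSK591 was the smallest of the 5, at 1.27-fold and a log2 change of 0.34 ± 0.0415 (adjusted p = 5.13e-06). The change with MS023 was 0.058 ± 0.0417 (adjusted p = 0.268).

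CCNG1, or cyclin G1, which brings the phosphatase PP2A to MDM2 (ENSG00000113328, hg19 chr5:162864575-162873157, + strand), had 224.2, 245.8 and 240.1 CPM in GSK591 libraries, 116.5, 107.9 and 114.6 CPM in MS023 libraries, and 155.2, 164.2 and 151.4 CPM in DMSO libraries. No group overlapped another, and GSK591 and MS023 lay on opposite sides of DMSO. With GSK591 it rose by 0.59 ± 0.046 on the log2 scale (adjusted p = 4e-08), and with MS023 it fell by 0.47 ± 0.046 (adjusted p = 8.97e-07). That was the largest decrease among the 7 genes with MS023. The inhibitors differed 2.09-fold, a log2 difference of -1.07 ± 0.0463 (adjusted p = 4.59e-11).

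AEN, a nuclease of apoptosis (ENSG00000181026, hg19 chr15:89164527-89175513, + strand), had 117.3, 116.2 and 111.8 CPM in GSK591 libraries, 75.59, 79.26 and 78.03 CPM in MS023 libraries, and 67.75, 63.77 and 66.56 CPM in DMSO libraries. It was the only one of the 7 genes called higher with both inhibitors, and no group overlapped another. The log2 change was 0.80 ± 0.0356 with GSK591 (adjusted p = 1.08e-10) and 0.23 ± 0.0355 with MS023 (adjusted p = 7.18e-05). MS023 was lower than GSK591 by a log2 difference of -0.57 ± 0.0353 (adjusted p = 2.47e-09).

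ZMAT3, a zinc finger protein that binds RNA (ENSG00000172667, hg19 chr3:178735011-178790067, - strand), had 91.23, 101.5 and 97.94 CPM in GSK591 libraries, 33.89, 32.74 and 34.76 CPM in MS023 libraries, and 44.18, 42.4 and 39.74 CPM in DMSO libraries. Its groups were ordered as those of MDM2, without overlap. The log2 change was 1.20 ± 0.0488 with GSK591 (adjusted p = 4.53e-11), a 2.3-fold rise, and -0.32 ± 0.0493 with MS023 (adjusted p = 9.14e-05). Between the inhibitors it was -1.52 ± 0.0493 (adjusted p = 1.87e-12). In FPKM without a filter on low values, the fall with MS023 was not called (limma, adjusted p = 0.061).

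**Figure D3:**
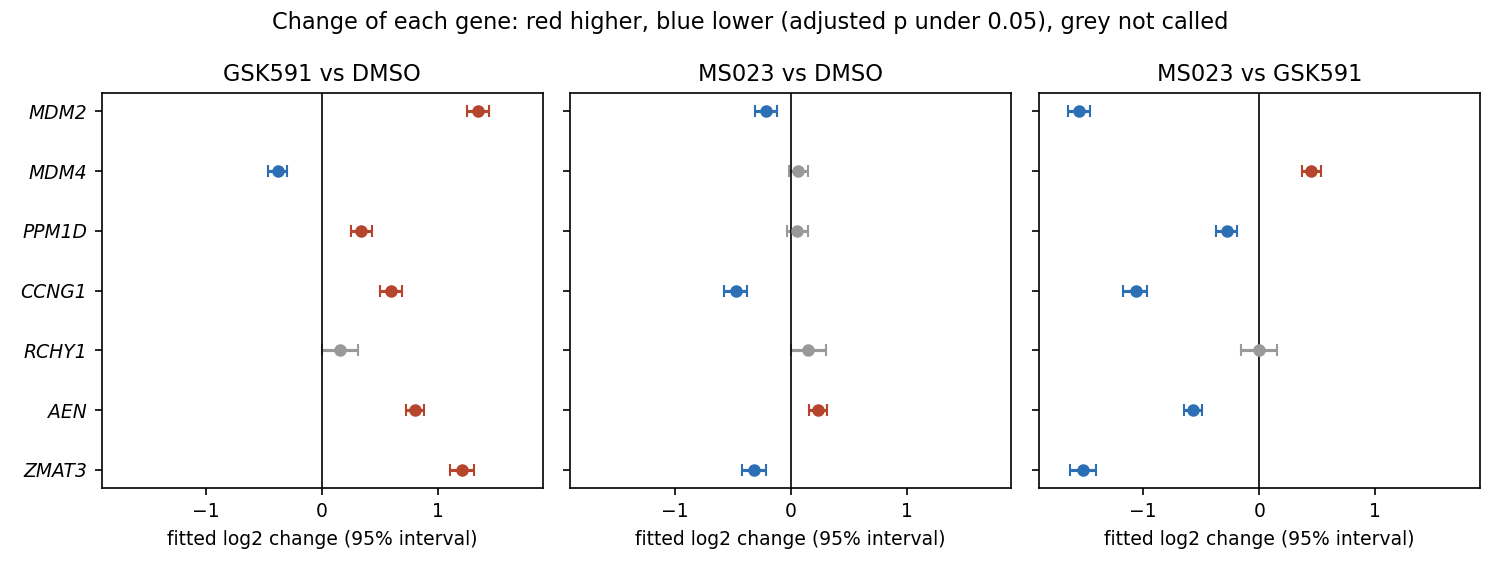
Fitted log2 change of each of the 7 genes with its 95% interval in GSK591 against DMSO, MS023 against DMSO and MS023 against GSK591. MDM2 and ZMAT3 reach 1.34 and 1.20 with GSK591 and lie below 0 with MS023, MDM4 runs the other way with GSK591, and both RCHY1 changes against DMSO have intervals that touch 0.

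Levels between genes were compared in FPKM, which accounts for length. In DMSO libraries MDM2 averaged 59.53 ± 3.24 FPKM, CCNG1 57.4 ± 3.12, AEN 20.06 ± 0.478, MDM4 12.81 ± 0.396, PPM1D 7.878 ± 0.365, RCHY1 6.592 ± 0.636 and ZMAT3 4.034 FPKM (SD, n = 3). All neighbours in this order were apart except MDM2 and CCNG1, whose ranges overlapped. With GSK591, MDM2 averaged 156 ± 13.7 FPKM and stood 1.8-fold above CCNG1, the ranges of MDM4 and PPM1D overlapped, as did those of PPM1D and ZMAT3, and RCHY1 took the last place. With MS023, MDM2 averaged 49.76 ± 2.55 FPKM, 1.16-fold above CCNG1 without overlap, RCHY1 and PPM1D overlapped, and ZMAT3 was again last at 3.439 FPKM. ZMAT3 thus moved past RCHY1 with GSK591, where it averaged 9.442 FPKM. Other genes overlap MDM2 and CCNG1, and how FPKM divided reads with them is not given. Small differences in level between MDM2 and CCNG1 are therefore uncertain.

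Over the 9 libraries, log2 CPM of MDM2 correlated with that of ZMAT3 at r = 0.995 and with that of MDM4 at r = -0.98, values that mostly restate the 3 groups. After the group means were taken away, MDM2 and CCNG1 had r = 0.827, CCNG1 and ZMAT3 0.73, MDM2 and MDM4 0.407, and CCNG1 and AEN -0.701. These r are descriptions over 9 libraries whose scaling the genes share. By distance between centred log2 CPM profiles, among 13820 genes with at least 1 CPM on average, the profiles nearest to MDM2 were those of CDC42EP3, MAP1B and the carboxypeptidase M gene. Those nearest to ZMAT3 were the carboxypeptidase M gene at a distance of 0.157, FGF2 and MAP1B. MDM4 was nearest to SUZ12 at 0.0929, HMGXB4 and PHF19, whose log2 changes with GSK591 were -0.40, -0.35 and -0.40. PPM1D was nearest to ZFR, TNIP1 and SUCO, CCNG1 to DTX3L, RASSF2 and PAQR5, RCHY1 to PPRC1, ZNF561 and CDK11B, and AEN to KANK1, FBLIM1 and MAP3K9.

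The carboxypeptidase M gene (symbol CPM, ENSG00000135678, hg19 chr12:69235977-69365350, - strand) lies tail to tail with MDM2 and shares 3238 bases with it. It had 30.9, 35.5 and 30.9 CPM in GSK591 libraries, 12, 11.1 and 12 CPM in MS023 libraries, and 14.3, 14.1 and 13.9 CPM in DMSO libraries. It rose with GSK591 (1.20 ± 0.0615, adjusted p = 4.4e-10) and fell with MS023 (-0.27 ± 0.0649, adjusted p = 0.00297), as MDM2 did. Its level was far below that of MDM2 in every group, and with the strand setting of the counting not given, reads of MDM2 in the shared stretch cannot be told apart from its own. RP11-611O2.1, a transcript inside MDM2 with 217 counts in all, rose with GSK591 as well (1.56 ± 0.306, adjusted p = 0.000437). RP11-611O2.3, a processed pseudogene inside MDM2, had no counts in any library but 61.6, 72.8 and 64.1 FPKM in GSK591, 19.2, 23.5 and 25 FPKM in MS023, and 26, 22.8 and 21.1 FPKM in DMSO libraries. The FPKM tables thus give values there although the count table assigns no counts. Since the pseudogene lies inside MDM2, its higher FPKM in GSK591 cannot be told apart from the signal of MDM2.

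The nearest tested neighbours outside the overlaps moved in both directions. SLC35E3, before MDM2, fell by 0.135 ± 0.0484 with GSK591 (adjusted p = 0.0246) and by 0.495 ± 0.0488 with MS023 (adjusted p = 1.04e-06), while CPSF6, after it, was called with neither (adjusted p = 0.0792 and 0.361). Around MDM4, PIK3C2B and LRRN2 rose with GSK591, by 0.463 ± 0.0461 and 0.589 ± 0.0772, while MDM4 fell. With MS023, LRRN2 rose (0.216 ± 0.0779, adjusted p = 0.0315) and PIK3C2B was not called (adjusted p = 0.864). NUDCD2, on the other strand with its end 374 bases beyond the end of CCNG1, fell with GSK591 (-0.395 ± 0.0555, adjusted p = 1.99e-05), while CCNG1 rose. With MS023, NUDCD2 fell (-0.699 ± 0.0559, adjusted p = 1.13e-07), as CCNG1 did. ISG20, an exonuclease related to AEN and 3870 bases beyond it, fell by 1.76 ± 0.087 with GSK591 (adjusted p = 3.13e-10), while AEN rose, and lay at -0.00113 with MS023 (adjusted p = 0.992). Before PPM1D, APPBP2 fell with MS023 (-0.265 ± 0.0384, adjusted p = 4.54e-05), and after it BCAS3 fell with GSK591 (-0.253 ± 0.0418, adjusted p = 9.48e-05) and with MS023 (-0.261 ± 0.0416, adjusted p = 0.000111). Beside ZMAT3, the long noncoding RNA gene RP11-91K9.1, 1117998 bases away, rose with GSK591 on few counts, 42 in GSK591 and 5 in DMSO libraries together, and PIK3CA on the other side fell by 0.15 ± 0.0422 (adjusted p = 0.00642). PTTG1, far before CCNG1, fell with GSK591 (-1.44 ± 0.0597, adjusted p = 5.41e-11) and with MS023 (-0.248 ± 0.0575, adjusted p = 0.00231). PARM1, on one side of RCHY1, fell with GSK591 (-0.849 ± 0.0526, adjusted p = 3.57e-09) and rose with MS023 (2.08 ± 0.0457, adjusted p = 1.99e-13), the largest change of a neighbour with MS023. CDKL2, on its other side, and RP11-97O12.7, before AEN, were called with neither inhibitor, nor was RP11-430C7.2, a pseudogene inside MDM4. RNA5SP74 in MDM4, RNU6-623P in PPM1D and RP11-611O2.5 in MDM2 overlap too and had 7, 15 and 0 counts in all, too few to test, and AC112205.1, which overlaps CCNG1, was not analysed here. THAP6, which overlaps the start of RCHY1 by 819 bases on the other strand, fell with MS023 (-0.24 ± 0.0556, adjusted p = 0.00231) and was not called with GSK591 (adjusted p = 0.285).

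**Figure D4:**
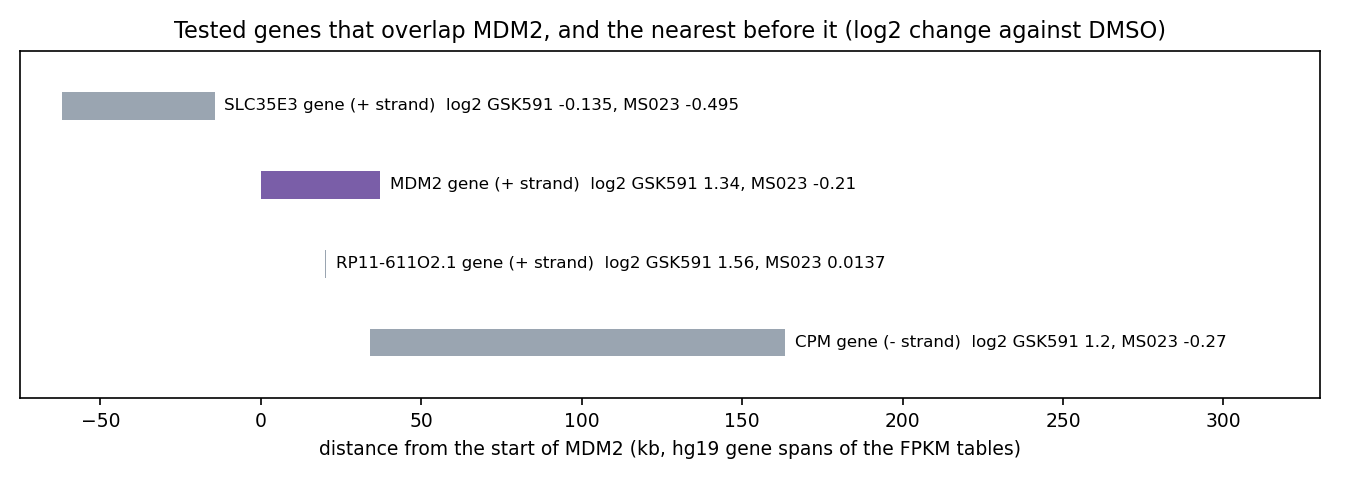
Spans of MDM2, the tested genes that overlap it and the nearest tested gene before it, as distance in kb from the start of MDM2, with the strand and the log2 change against DMSO of each. The carboxypeptidase M gene (CPM) overlaps the end of MDM2 and changed by 1.2 with GSK591, and SLC35E3, which does not overlap, by -0.135.

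Of 36 other p53 targets, 34 rose with GSK591, and FBXO22 and PLXNB2 were not called, with a median log2 change of 0.86 over the 36 genes against 0.00585 over all genes. The largest increases were in TRIM22 (2.79 ± 0.15), the cell cycle inhibitor CDKN1A (2.18 ± 0.0424) and the death receptor FAS (1.999 ± 0.056), with CDKN1A averaging 265.6 ± 1.52 CPM in GSK591 and 58.46 ± 3.55 CPM in DMSO libraries (SD, n = 3 each). TRIM22 rose from a low level, averaging 8.617 ± 0.869 CPM in GSK591 and 1.271 ± 0.261 CPM in DMSO libraries. The share of all genes called higher was 30.1%. Set beside these 36, 10 had a higher log2 change with GSK591 than MDM2, 13 than ZMAT3, 19 than AEN and 27 than CCNG1. Of the 36, 29 lay above PPM1D, 34 above RCHY1 and all 36 above MDM4. With MS023, 7 of the 36 rose, 12 fell and 17 were not called, against 25.1% higher and 25.9% lower among all genes, and the median was -0.07. The stress cytokine GDF15 rose most, by 1.13 ± 0.0587, to 65.46 ± 3.02 CPM in MS023 against 30.05 ± 2.77 CPM in DMSO libraries. The autophagy gene SPATA18 (-1.004 ± 0.109), TP53I3 (-0.80 ± 0.0448) and the repair gene XPC (-0.58 ± 0.0415) fell most. MS023 was lower than GSK591 in 33 of the 36 and higher in PLXNB2 alone, with a median of -0.96. Among all genes, 31.7% were called lower and 33.6% higher in that comparison, with a median of 0.00171. The decrease of SPATA18 with MS023 was not called in FPKM without a filter.

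**Figure D5:**
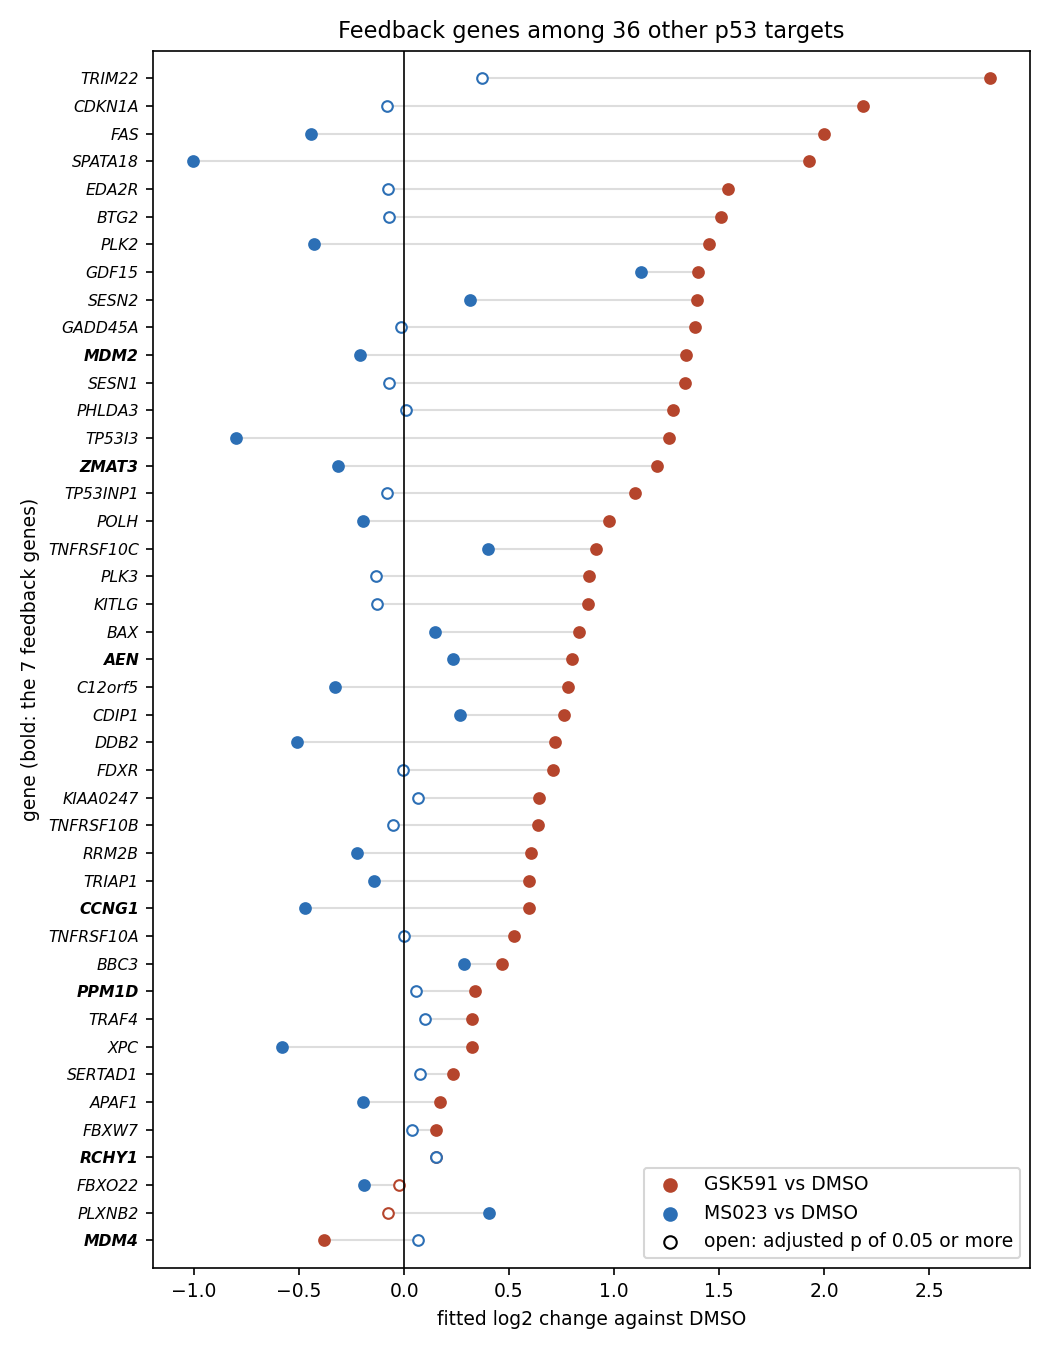
Fitted log2 change against DMSO of the 7 feedback genes (bold) and 36 other p53 targets, red for GSK591 and blue for MS023, with open symbols where the adjusted p is 0.05 or more. Sorted by the GSK591 change, MDM4 is the lowest gene, and 34 of the 36 other targets have filled red symbols to the right of 0.

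Changes in other regulators of p53 stability were smaller with GSK591 than that of MDM2. Of 7 further ubiquitin ligases and deubiquitinases, 1 rose and 3 fell with GSK591, and 3 rose and 3 fell with MS023, with medians of -0.073 and 0.033. The ligase RFWD2 fell with GSK591 (-0.30 ± 0.042, adjusted p = 2.21e-05), and the deubiquitinase OTUD5 rose with GSK591 (0.28 ± 0.04) and with MS023 (0.32 ± 0.0399). For this and the lists that follow, the shares of all genes are 30.1% higher and 32.4% lower with GSK591 and 25.1% higher and 25.9% lower with MS023, and with so few members the counts are read no further. The MS023 count of the ubiquitin list was 1 higher and 2 lower without MS023 library 2. Of 8 ribosomal and nucleolar proteins that bind MDM2, 7 were tested, 6 fell with GSK591 and 3 with MS023, and the others were not called, with medians of -0.25 and -0.15. The nucleolar GTPase GNL3 fell most with GSK591, to 77.77 ± 1.71 CPM against 110.8 ± 1.8 CPM in DMSO libraries (-0.51 ± 0.03, adjusted p = 2e-09), and RPL5 fell most with MS023 (-0.29 ± 0.0455, adjusted p = 9.03e-05) and also with GSK591 (-0.18 ± 0.0455, adjusted p = 0.0032). RPS7 and NPM1 fell with both inhibitors as well, although in FPKM without a filter neither was called with MS023 (limma). Without DMSO library 1, or without MS023 library 1, 5 of the 7 fell with MS023. CDKN2A had 0 counts in each of the 9 libraries, which allows a level of up to 0.0955 CPM in the shallowest (3 counts).

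Of 8 kinases of DNA damage and of p53, 1 rose and 5 fell with GSK591, and 3 rose and 2 fell with MS023, with medians of -0.14 and 0.016. The checkpoint kinase CHEK2 fell with GSK591, to 13.13 ± 0.332 CPM against 22.12 ± 1.5 CPM in DMSO libraries (-0.76 ± 0.0612, adjusted p = 6.35e-08), and rose with MS023 (0.26 ± 0.0579, adjusted p = 0.00172). CHEK1 fell with GSK591 (-0.51 ± 0.0455) and HIPK2, which phosphorylates p53, rose (0.44 ± 0.0411). ATM and PRKDC fell with MS023, by 0.55 ± 0.0392 and 0.36 ± 0.0369, and those calls and that of CHEK2 were not made in FPKM without a filter. Of 10 cofactors of p53, 4 rose and 2 fell with GSK591, and 5 rose and 3 fell with MS023, with medians of 0.081 and 0.13. PPP1R13B, which steers p53 toward apoptosis genes, rose with MS023 (0.87 ± 0.0476, adjusted p = 1.93e-09). PPP1R13L, the inhibitory member of its family, rose with GSK591 (0.57 ± 0.105, adjusted p = 0.000237) and with MS023 (0.60 ± 0.104, adjusted p = 0.000213), calls not made in FPKM without a filter, nor with GSK591 in filtered FPKM. The deacetylase SIRT1 fell with GSK591 (-0.46 ± 0.0338) and with MS023 (-0.43 ± 0.0337), and the methyltransferase SETD7 rose with GSK591 (0.25 ± 0.0348) and fell with MS023 (-0.25 ± 0.0349).

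Of 9 subunits of PP2A, the phosphatase that cyclin G1 recruits, 2 rose and 6 fell with GSK591, and 3 rose and 2 fell with MS023, with medians of -0.13 and 0.063. PPP2R5A, of the subunit family that cyclin G1 binds, fell with GSK591 to 46.96 ± 1.89 CPM against 74 ± 0.29 CPM in DMSO libraries (-0.66 ± 0.0365, adjusted p = 1.13e-09) and rose with MS023 (0.15 ± 0.036, adjusted p = 0.00253). With libraries scaled by total counts, 2 of the 9 rose and 3 fell with GSK591. Of 18 close relatives of the 7 genes, 4 rose and 9 fell with GSK591, and 4 rose and 5 fell with MS023, with medians of -0.17 and 0.027. PPM1H, a relative of PPM1D, rose with GSK591 to 63.74 ± 1.94 CPM against 34.97 ± 0.864 CPM in DMSO libraries (0.87 ± 0.0431, adjusted p = 3.32e-10) and fell with MS023 (-0.51 ± 0.0443, adjusted p = 2.55e-07), a call not made in FPKM without a filter. PPM1A (-0.41 ± 0.0349) and ZMAT2 (-0.40 ± 0.0415) fell with GSK591, while their relatives PPM1D and ZMAT3 rose.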

How the data were processed

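RNA from A549 cells was sequenced in 9 libraries, 3 each with GSK591, MS023 and DMSO. The authors deposited a table of whole-number counts per gene and 9 tables of FPKM, which the file headers lay out as Cufflinks gene tables. The submitters' processing notes name cutadapt, STAR, featureCounts, DESeq2 and hg19. For versions, annotation and strand setting, nothing is given in the sources used here. Overlapping genes are therefore uncertain.

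The filterByExpr function (count of at least 10, total of at least 15) chose the genes tested, and all 9 libraries were fitted with edgeR 4.0.16 in R 4.3.3 with TMM scaling and group as the only term. Alternatives were DESeq2 1.42.0, limma 3.58.1 on log2(FPKM + 1) and log2(FPKM + 0.1), other filters and scalings, a replicate block, only the 6 libraries compared, each library left out in turn, and both libraries that stand apart left out. Gene spans are those of the FPKM tables (hg19), with starts raised by 1 base, and promoters are RefSeq's on GRCh38.p14. Strands and gene types come from GENCODE, matched by identifier.

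The 7 genes, the lists and the alternatives were chosen with earlier results of these data known. From each list, per comparison, the text may name up to 3 genes higher and 3 lower with the largest change among those called with a mean of at least 1 CPM. It also names 3 genes of nearest profile and the overlapping and nearest tested genes for each member. Intervals are at 95% and rest on the spread between libraries, and reads copied by PCR are not independent molecules.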

Additional observations from a re-analysis of the deposited data

How the results depend on the processing

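Each member had 20 alternatives per comparison. MDM2, PPM1D, CCNG1 and AEN kept their direction and side of the threshold in all of them. MDM2 ran from 1.31 to 1.41 with GSK591 and from -0.26 to -0.17 with MS023. Its fall with MS023 was only just called at its weakest, where the adjusted p was 0.0491, the highest of the 20 alternatives. The MDM4 decrease with GSK591 lost its call in the 3 FPKM settings (adjusted p = 0.105, 0.103 and 0.217), and its difference between the inhibitors in unfiltered FPKM (adjusted p = 0.0519). ZMAT3 lost its call with MS023 in unfiltered FPKM (adjusted p = 0.061). MDM4 gained a call with MS023 under total counts (adjusted p = 0.0481). RCHY1 gained a call in 8 alternatives with GSK591 and 6 with MS023. Its difference between the inhibitors changed sign without a filter (0.022), with the replicate block (0.00049), with DESeq2 (0.0027) and with both libraries that stand apart left out (0.00028), and ran from -0.086 to 0.085 with single libraries left out. The cause was not tested.

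Members called with GSK591 numbered 6 to 7, with MS023 4 to 6 and between the inhibitors 5 to 6. Genes called fell in the 3 FPKM settings in each comparison, and the cause was not tested. With MS023 they fell to 5751, 5740 and 5450, against 9327. With GSK591 they fell to 8006, 7995 and 8640, against 11443. Between the inhibitors they fell to 8330, 8305 and 9416, against 11955. FPKM also shifted the median of all genes with GSK591, to -0.102 and -0.116 in the filtered settings. Over named list genes, 1914 of 2020 alternatives kept the call, 106 lost it and 0 reversed, and 27 of 420 list counts moved by over 1.5 times. The fewest counts behind a member were those of RCHY1, 462 to 750 per library. Same-numbered libraries deviated together with r from -0.43 to 0.258, over 0.1 in 2 of 9 pairs, and 1 of 9 libraries correlated best with its own number, so the numbers were not taken as pairs. With the replicate block, 11145, 8855 and 11642 genes were called with GSK591, with MS023 and between the inhibitors, and 6, 4 and 6 members.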
